A study of Mus musculus with 17 samples.

Results

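Messenger RNA levels were compared between spleen CD8 T cells labelled Tet2 KO and spleen CD8 T cells labelled Rosa KO, over every gene of the deposited tables. The members were chosen by label alone: 4 libraries with the genetic modification Tet2 KO and 5 with Rosa KO, which together are 9 of the 17 RNA-seq libraries of a mouse series titled for regulators of clonal hematopoiesis and CD8 T cell stemness under immunotherapy. All of these libraries carry the same genotype label, CD8+Thy1.1+, so the control cells share the Thy1.1 marker with the knockout cells and differ from them, per the labels, only in the targeted locus. The Rosa locus is a customary neutral target, so Rosa KO stands for cells that went through targeting without loss of a regulator. The labels give no age, sex, strain, tumor, treatment or time, do not say how the gene was disrupted, and do not say that replicates came from separate mice. The other groups, 4 Asxl1 KO and 4 Dnmt3a KO libraries, were in the model too. They informed the spread and the run term described below, and served for side by side values. Groups are called by their labels throughout.

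TET2 is a dioxygenase that oxidises 5-methylcytosine in DNA to 5-hydroxymethylcytosine and further products, a step toward removal of the methyl mark at CpG sites. In the blood system its gene is often mutated in clonal hematopoiesis, the expansion of a blood cell clone without overt disease. In CD8 T cells it is known as a brake on memory formation: after antigen, cells either follow a TCF1-driven, long-lived program, a ZEB2- and T-bet-driven cytotoxic effector program, or, under lasting antigen, a TOX-driven exhausted program with inhibitory receptors. Genes of these programs are described by role, with the value in every library for those the results turn on and the fitted difference for the others. Levels are given as counts-per-million (CPM) after TMM scaling, which corrects for library composition and not for gene length, so levels are compared between libraries and never between genes. Differences are log2 fold changes with standard errors from edgeR's quasi-likelihood test, with group and library-number run as terms, and a gene passed at a Benjamini-Hochberg adjusted p under 0.05 over all tested genes.

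The libraries differed in ways the labels do not explain. Total counts ran from 6625833 to 40701203 in Rosa KO and from 13890261 to 30084945 in Tet2 KO. The library numbers in the labels fall into 3 runs: Rosa KO 1 lies in run 1, Tet2 KO 1 and 2 in run 2, and Rosa KO 2 to 5 with Tet2 KO 3 and 4 in run 3. Only run 3 holds both groups and nothing in the labels names a batch. In the fit, the run 2 level was therefore set with the help of Asxl1 KO 2 and Dnmt3a KO 3 and 4. What Tet2 KO 1 and 2 add to each fitted difference from Rosa KO rests on those libraries. Rosa KO 1 stood apart from the other 4 control libraries at many genes named here. The labelled cell type was checked against its markers. Cd8a lay between 640.7 and 966 CPM and Cd8b1 between 588 and 955 CPM in the 9 libraries, while Cd4 reached at most 28.1 CPM. Transcripts of B cells were present as well: the summed level of 17 B cell markers was 1699 CPM in Rosa KO 1, 6466 to 7261 CPM in Rosa KO 2 to 5, and 4927, 253.2, 7946 and 7183 CPM in Tet2 KO 1 to 4. None of those 17 markers passed between Tet2 KO and Rosa KO, where 1.47% of all tested genes passed, and their median log2 fold change was 0.0043, against −0.02 over all tested genes. Myeloid markers summed to 619 to 1441 CPM in Rosa KO and 914, 147, 1186 and 1103 CPM in Tet2 KO 1 to 4. Neutrophil markers summed to 98.1 to 250.5 CPM in Rosa KO and 117, 4.39, 247 and 159 CPM in Tet2 KO. Erythroid and platelet markers were at 730 CPM in Rosa KO 1 and 84.9 to 122 CPM in Rosa KO 2 to 5. No marker of these lists passed. In bulk libraries such as these, a smaller share of cells of a type and less RNA per cell cannot be told apart, which holds for every difference below.

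The targeted gene came first. Tet2 (NCBI gene 214133, mm10 chromosome 3, 133463677 to 133545136) was at 138, 176, 162, 144 and 186 CPM in Rosa KO 1 to 5 and at 216, 254, 129 and 125.1 CPM in Tet2 KO 1 to 4. The run 2 libraries of Tet2 KO lay above every control library and the run 3 libraries below every one, so the group as a whole overlapped with the control. In the other run 2 libraries Tet2 was at 261 and 195 CPM (Dnmt3a KO 3 and 4) and 215 CPM (Asxl1 KO 2). The fitted log2 fold change was −0.26 ± 0.23 (adjusted p = 0.734). A count summed over the whole gene does not show a short insertion or deletion, and the labels do not say which part of the gene was altered, so this level does not check the labels. Dnmt3a, a de novo DNA methyltransferase, was at −0.02 ± 0.26 (adjusted p = 0.99), and Asxl1, a Polycomb deubiquitinase subunit, at 0.02 ± 0.22 (adjusted p = 0.987). Of 23 tested genes of the DNA methylation machinery, 0 rose and 1 fell (0.987% and 0.483% of all tested genes), with a median log2 fold change of −0.18. The member that fell was Zbtb38 (NCBI gene 245007, mm10 chromosome 9, 96682767 to 96731675), a zinc finger protein that binds methylated DNA, at 234, 239.7, 225, 226 and 215 CPM in Rosa KO and 146, 163, 128 and 113 CPM in Tet2 KO (log2 fold change −0.79 ± 0.18, adjusted p = 0.0228). Every Tet2 KO library lay below every control library. The other TET genes did not pass, with log2 fold changes of −1.32 for Tet1 and 0.06 for Tet3, nor did the maintenance methyltransferase gene Dnmt1 at 0.32.

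Of 13880 tested genes, 204 passed between Tet2 KO and Rosa KO (1.47%). There were 137 genes that rose (0.987%) and 67 that fell (0.483%). These shares are the background for the rises and falls of every gene list below. The median size of the log2 fold change was 0.84 for rises and 1.33 for falls, and 42 of the 137 rises and 46 of the 67 falls exceeded 2-fold. In 42 of the 67 falls every Tet2 KO library lay below every Rosa KO library, and in 24 of the 137 rises every Tet2 KO library lay above. Over all tested genes, 193 (1.39%) had all Tet2 KO libraries below and 198 (1.43%) had them all above, 391 in all (2.82%). Within run 3 alone, 2 Tet2 KO libraries face 4 Rosa KO libraries, and 172 of 13080 genes rose (1.31%) and 120 fell (0.917%). All 204 genes had the same sign there, and 150 of them passed. The run 3 libraries are also in the main fit, and no other run holds both groups. This agreement therefore follows in part from how the 204 were picked. Without the run term 22 of the 204 passed. With only the libraries of these 2 groups in the fit, 109 of the 204 passed. With both run 2 libraries of Tet2 KO left out 99 did, and with both run 3 libraries left out 8 did: Entpd1, Ccr2, Epha3, Glp1r, Itgb1, Gpr55, Ubash3b and Kbtbd11.

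**Figure D1:**
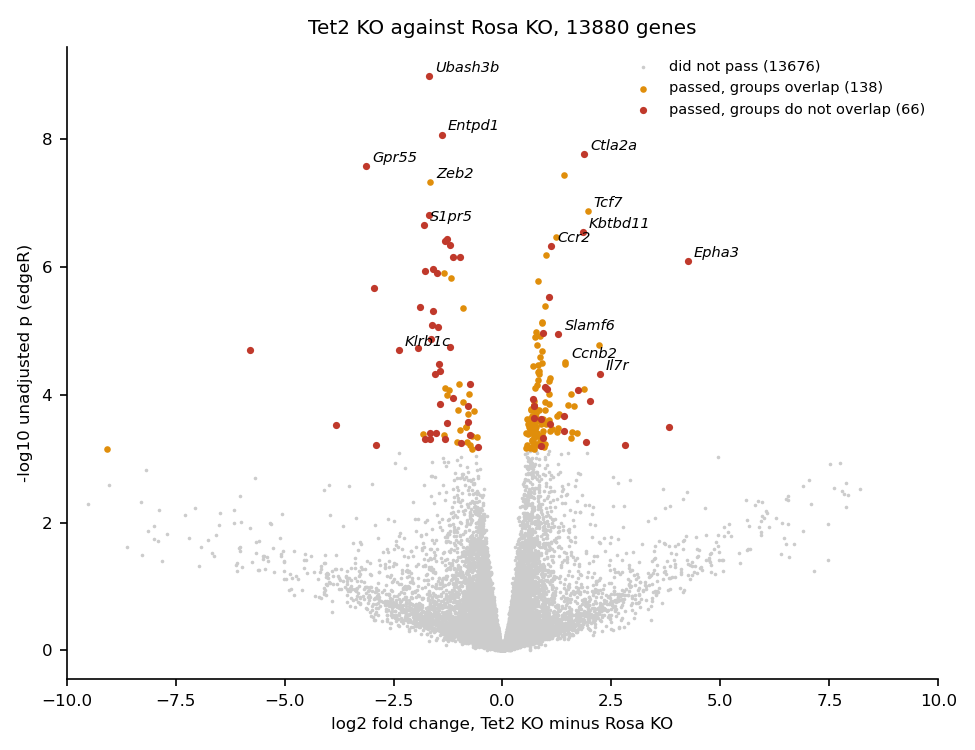
Difference (x axis, log2 fold change of Tet2 KO minus Rosa KO) against −log10 of the unadjusted edgeR p (y axis) for the tested genes. Orange points are the 138 genes that passed with overlapping libraries and red points the 66 that passed without overlap. The red points dominate among the falls on the left, while most of the rises on the right are orange.

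Tcf7, Slamf6, Il7r, Xcl1 and Cxcr3, genes of the stem-like and memory program, rose in Tet2 KO. Of 26 tested members of this list 5 rose and 1 fell (0.987% and 0.483% of all tested genes). The list median was 0.28, against −0.02 over all tested genes. Tcf7 (NCBI gene 21414, mm10 chromosome 11, 52246527 to 52283383), which encodes TCF1, the transcription factor that maintains memory and progenitor T cells, was at 102, 17.3, 14.2, 22.7 and 24.6 CPM in Rosa KO 1 to 5. It was at 80.3, 126.2, 99.97 and 85.8 CPM in Tet2 KO 1 to 4. The Tet2 KO libraries of both runs lay above the 4 control libraries of run 3, and the single control library of run 1 lay among them. The fitted log2 fold change was 1.95 ± 0.27 (adjusted p = 0.000268). Without the run term the log2 fold change was 1.44 and did not pass (adjusted p = 0.723). Skp1 overlaps Tcf7 on the genome, and whether counting used the strand is not given in the sources used here.

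Slamf6 (NCBI gene 30925, mm10 chromosome 1, 171917458 to 171948958), a surface receptor used to mark progenitor cells, was at 56, 74.7, 111, 70.7 and 64.4 CPM in Rosa KO and 203, 209.9, 196 and 192 CPM in Tet2 KO. The 4 Tet2 KO libraries were nearly level with each other and all above the control (log2 fold change 1.28 ± 0.23, adjusted p = 0.00412). Il7r (NCBI gene 16197, mm10 chromosome 15, 9506159 to 9529941), the interleukin 7 receptor chain on which memory cells depend for survival, was at 46.7, 15.3, 64.6, 13.9 and 29.8 CPM in Rosa KO and 370.5, 498, 117 and 128 CPM in Tet2 KO. Again no library overlapped, and the run 2 libraries of Tet2 KO were the highest (log2 fold change 2.23 ± 0.40, adjusted p = 0.0108). The chemokine gene Xcl1 and the chemokine receptor gene Cxcr3 also rose. Xcl1 was at 8.97, 2.69, 8.68, 7.48 and 4.08 CPM in Rosa KO and 6.29, 13.4, 26 and 31.1 CPM in Tet2 KO (log2 fold change 2.22 ± 0.42, adjusted p = 0.0054), and Cxcr3 at 184, 72.8, 79.4, 81.6 and 78.7 CPM in Rosa KO and 171, 179, 193 and 198 CPM in Tet2 KO (log2 fold change 1.23 ± 0.18, adjusted p = 0.000414). For Cxcr3 the run 1 control library had a level like that of Tet2 KO, as it had for Tcf7. Neither passed without the run term (adjusted p = 0.559 for Xcl1 and 0.535 for Cxcr3).

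Other genes of the memory program named here fell or did not pass. Of the 26 tested members, 19 had a positive log2 fold change, as had 6716 of 13880 tested genes. The survival gene Bcl2 fell, from 386, 268, 302, 320.2 and 326 CPM to 214, 394, 137 and 180.0 CPM (log2 fold change −0.80 ± 0.18, adjusted p = 0.0271), with Tet2 KO 2 above every control library. Eomes, a transcription factor shared by memory and exhausted cells, was at 201, 93.4, 88, 107 and 72.4 CPM in Rosa KO and 232, 246, 154 and 145 CPM in Tet2 KO and narrowly missed the threshold (log2 fold change 0.79 ± 0.21, adjusted p = 0.0541). Lef1, a relative of Tcf7, was at −0.28 ± 0.29 (adjusted p = 0.787), and the memory repressor gene Bach2 at −0.59 ± 0.44 (adjusted p = 0.674). The summed level of the list was 3464 CPM in Rosa KO 1 and 2758 to 2876 CPM in Rosa KO 2 to 5. In Tet2 KO 1 to 4 it was 3680, 3971, 3313 and 3165 CPM.

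**Figure D2:**
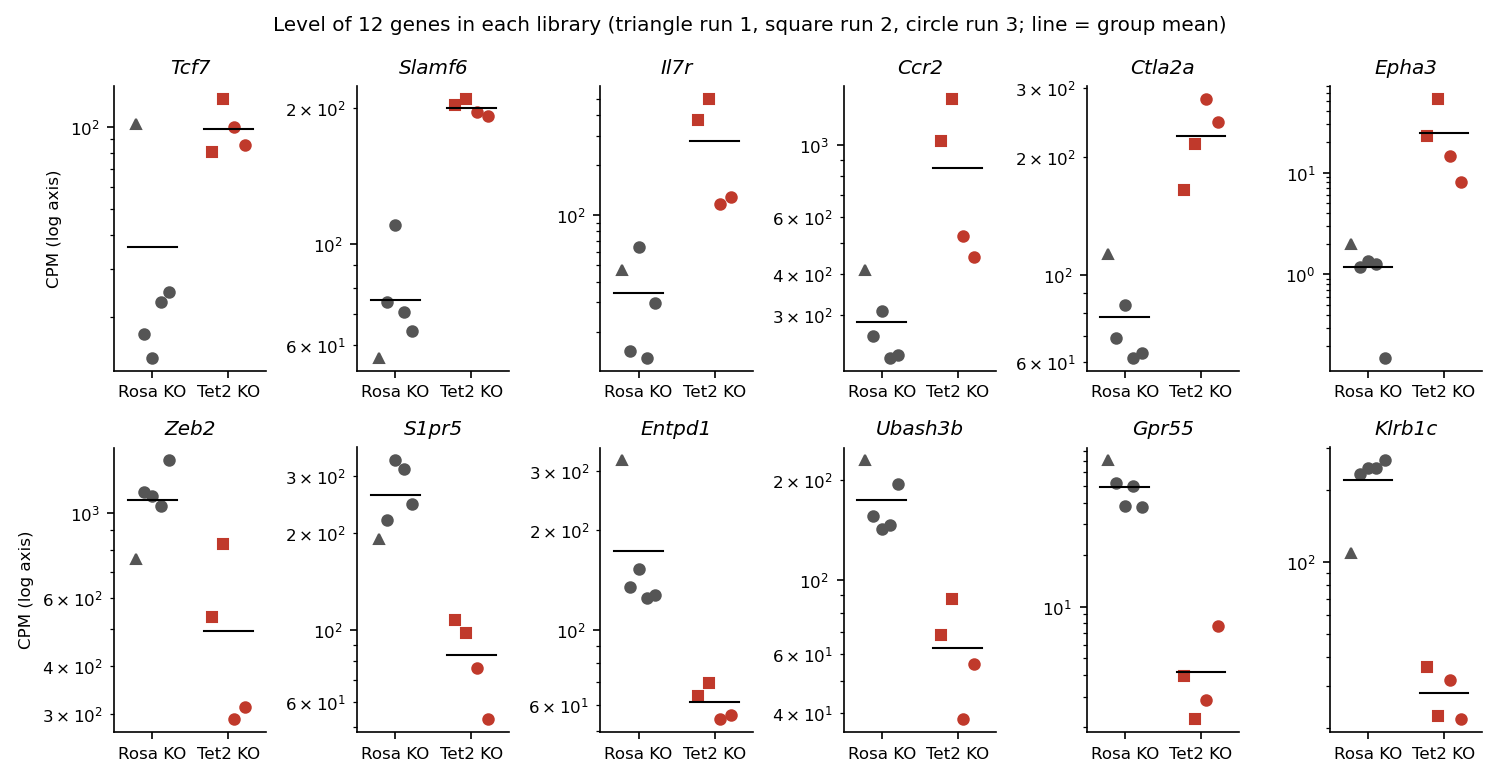
CPM on a log axis for 12 genes in the 5 Rosa KO libraries (grey) and the 4 Tet2 KO libraries (red). Marker shape gives the run and the line the group mean. Tcf7 in the run 1 control (102 CPM) and Zeb2 in Tet2 KO 2 (830 CPM) overlap with the other group, while the other genes show no overlap.

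Zeb2, S1pr5, Itgam, Klrg1 and other effector and cytotoxic genes fell in Tet2 KO: 0 of 35 tested members rose and 11 fell (0.987% and 0.483% of all tested genes), with a list median of −0.42. In 10 members every Tet2 KO library lay below every control, as in 1.39% of all tested genes. Zeb2 (NCBI gene 24136, mm10 chromosome 2, 44983512 to 45117442), the transcription factor that drives terminal effector differentiation, was at 758, 1134, 1107, 1040.1 and 1366 CPM in Rosa KO and 536, 829.7, 290.5 and 312 CPM in Tet2 KO. The run 3 libraries of Tet2 KO were far below all controls, the run 2 libraries lay nearer to them, and Tet2 KO 2 lay above Rosa KO 1. The fitted log2 fold change was −1.67 ± 0.22 (adjusted p = 0.00011), and without the run term it did not pass (log2 fold change −1.14, adjusted p = 0.186). S1pr5 (NCBI gene 94226, mm10 chromosome 9, 21242917 to 21248443), a sphingosine phosphate receptor used by terminal effector and NK cells, fell without overlap, from 191, 219.8, 335, 316 and 245 CPM to 108, 97.9, 76.5 and 52.9 CPM (log2 fold change −1.80 ± 0.25, adjusted p = 0.000346). Itgam (NCBI gene 16409, mm10 chromosome 7, 128062640 to 128118491), the integrin chain CD11b found on effector CD8 cells, was at 342, 365, 409, 368 and 396 CPM in Rosa KO and 179, 158, 146 and 123.7 CPM in Tet2 KO. The levels were tight within each group and did not overlap (log2 fold change −1.33 ± 0.19, adjusted p = 0.000414). Klrg1, a lectin receptor of short-lived effector cells, was at 98.8, 195, 160.3, 165 and 148 CPM and 81.3, 88.5, 46.7 and 51.5 CPM, again without overlap (log2 fold change −1.27 ± 0.30, adjusted p = 0.0306). It did not pass without the run term (adjusted p = 0.106), nor without any 1 of Rosa KO 2 to 5 or Tet2 KO 3 or 4 (adjusted p up to 0.346).

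Among the cytotoxic and signalling molecules of this program, Fasl (NCBI gene 14103, mm10 chromosome 1, 161780691 to 161788495), the death ligand, was at 257, 308, 326, 327 and 311 CPM in Rosa KO and 139, 153, 128 and 88 CPM in Tet2 KO, with no overlap (log2 fold change −1.27 ± 0.19, adjusted p = 0.000414). The interleukin 12 receptor gene Il12rb2 was at 33.8, 39.5, 31.9, 36.9 and 42.1 CPM in Rosa KO and 12.1, 12.4, 12.1 and 9.81 CPM in Tet2 KO (log2 fold change −1.65 ± 0.40, adjusted p = 0.0346). Its genomic neighbour Serbp1 overlaps it, so shared reads are possible. Il18rap, a chain of the interleukin 18 receptor, fell with overlap, from 472, 1069.5, 993, 956 and 1131 CPM to 749, 1069.8, 418 and 433 CPM (log2 fold change −0.99 ± 0.21, adjusted p = 0.0144). Rosa KO 1 was low, and Tet2 KO 2 lay above 4 of the 5 controls. Without the run term Il18rap was at −0.47 and did not pass (adjusted p = 1). The granzyme inhibitor gene Serpinb9 and the chemokine gene Ccl9, both chosen after their values were seen, fell without overlap. Serpinb9 was at −0.74 ± 0.18 (adjusted p = 0.0357) and Ccl9 at −1.63 ± 0.30 (adjusted p = 0.0045).

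The granzyme genes Gzma and Gzmb and the perforin gene Prf1 did not pass. Gzma was at 2596, 2145, 2642, 1747 and 1940.2 CPM in Rosa KO and 1855, 2183, 1778 and 1446 CPM in Tet2 KO (log2 fold change −0.20 ± 0.17, adjusted p = 0.738), and Gzmb at 1716, 1557, 2089.6, 1488 and 1577 CPM and 900.1, 953, 1548 and 1302 CPM (log2 fold change −0.27 ± 0.14, adjusted p = 0.437). Prf1, whose product forms pores in target cells, was at 426, 301, 385, 284 and 261 CPM in Rosa KO and 199, 207, 139.6 and 133 CPM in Tet2 KO. Although all Tet2 KO libraries lay below all controls, it did not pass (log2 fold change −0.78 ± 0.24, adjusted p = 0.116), while within run 3 it did (log2 fold change −1.18, adjusted p = 0.00181). The interferon gamma gene Ifng was at 81.9, 423, 407, 416 and 398 CPM in Rosa KO and 115, 76.9, 178 and 221 CPM in Tet2 KO. It did not pass over all libraries (log2 fold change −0.77 ± 0.29, adjusted p = 0.234) and passed within run 3 (−1.05, adjusted p = 0.00105), where the 4 control libraries were all above the 2 Tet2 KO libraries. Cx3cr1, a chemokine receptor of effector cells, was likewise at −0.68 ± 0.27 (adjusted p = 0.285) over all libraries and at −1.12 within run 3 (adjusted p = 0.00849). The effector transcription factor genes Tbx21, at −0.57 ± 0.29 (adjusted p = 0.455), and Prdm1, at −0.24 ± 0.19 (adjusted p = 0.681), did not pass.

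Some receptor genes shared with NK cells fell too. Klrb1c, the NK1.1 receptor, was at 108, 234, 248, 247 and 266 CPM in Rosa KO and 36.3, 22.6, 31.8 and 21.8 CPM in Tet2 KO (log2 fold change −2.38 ± 0.43, adjusted p = 0.00589). The control of run 1 was the lowest of the controls and still above all Tet2 KO libraries. Klre1, another lectin receptor, fell from 114, 226, 298, 255 and 220.4 CPM to 138, 147, 102 and 92.1 CPM with overlap (log2 fold change −0.97 ± 0.24, adjusted p = 0.0344), and Txk, a kinase of T and NK cells, from 82.6, 143, 58, 102 and 79.5 CPM to 53.5, 105, 51.7 and 39.4 CPM, also with overlap (log2 fold change −1.05 ± 0.26, adjusted p = 0.0413). Neither passed without the run term (adjusted p = 0.422 for Klre1 and 0.987 for Txk), and of the 9 fits that leave out 1 library Klre1 lost the call in 6 (adjusted p up to 0.368) and Txk in 7 (adjusted p up to 0.222). Klrc2, chosen after its values were seen, fell in the fit (log2 fold change −1.33 ± 0.27, adjusted p = 0.0156) although its mean level was 286 CPM in Rosa KO and 314 CPM in Tet2 KO, where Tet2 KO 2 alone reached 774 CPM. Without the run term the direction of Klrc2 turned (log2 fold change 0.13, adjusted p = 1). These lectin receptors belong to families of near-identical genes, among which counting could split reads. Of the 11 NK cell markers, 0 rose and 4 fell (Il12rb2, Klrb1c, Klre1 and Txk), against 0.987% and 0.483% of all tested genes. Their summed level was 651 CPM in Rosa KO 1, 825 to 934 CPM in Rosa KO 2 to 5, and 461, 395, 454 and 381 CPM in Tet2 KO 1 to 4. It was low in the other knockouts too, at 348.5 to 383.7 CPM in Asxl1 KO and 302.2 to 369 CPM in Dnmt3a KO. Single markers of the list differed in level. Ncr1 was at most 2.94 CPM in any of the 9 libraries, Klra8 at most 8.38 and Klra7 at most 10.4 CPM. Klra9 did not pass but lay lower without overlap, at 111.7 to 148.7 CPM in Rosa KO and 55.56 to 87.46 CPM in Tet2 KO. Tyrobp and Fcer1g did not pass and overlapped. Tyrobp was at 104.5, 102.1, 68.75, 68.94 and 52.88 CPM in Rosa KO and 66.13, 7.82, 88.6 and 76.03 CPM in Tet2 KO. Fcer1g was at 62.58, 34.56, 54.36, 55.44 and 27.5 CPM and 37.96, 4.7, 66.08 and 67.07 CPM, highest in Tet2 KO 3 and 4. Of the 11 markers, 2 had a positive log2 fold change. How far NK cells took part in the falls was not tested beyond these levels.

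Genes of the exhaustion program fell in part: of 28 tested members, 0 rose and 7 fell (0.987% and 0.483% of all tested genes). The list median was −0.30. Entpd1 (NCBI gene 12495, mm10 chromosome 19, 40612366 to 40741602) encodes CD39, the ectonucleotidase that degrades extracellular ATP on exhausted and regulatory T cells. It was at 322, 134.5, 153, 125.3 and 128 CPM in Rosa KO and 63.8, 69.6, 54.2 and 56 CPM in Tet2 KO, where the 4 libraries lay close together below every control (log2 fold change −1.40 ± 0.16, adjusted p = 5.89e-05). Bhlhe40 (NCBI gene 20893, mm10 chromosome 6, 108660629 to 108666925), a transcription factor induced by T cell receptor signals, was at 498, 717, 623, 633 and 753 CPM in Rosa KO and 269, 182, 254 and 313 CPM in Tet2 KO, without overlap (log2 fold change −1.20 ± 0.18, adjusted p = 0.000441). Rgs16, a regulator of G protein signalling, fell from 44.3, 82, 53, 72.8 and 66.6 CPM to 14.1, 13.6, 27.8 and 26.3 CPM (log2 fold change −1.43 ± 0.29, adjusted p = 0.0104), and the inhibitory SLAM receptor gene Cd244a from 128, 74, 72, 96.2 and 97.1 CPM to 46.6, 36.2, 32.2 and 35 CPM (log2 fold change −1.42 ± 0.32, adjusted p = 0.0223). The orphan nuclear receptor gene Nr4a2, chosen after its values were seen, fell without overlap, from 166, 172, 192, 216 and 168 CPM to 72.5, 40.1, 59 and 78.1 CPM (log2 fold change −1.15 ± 0.25, adjusted p = 0.0201). Tox, the factor that sets the exhausted state, was at 1142, 456, 437, 501 and 538 CPM in Rosa KO and 384, 603, 304 and 321 CPM in Tet2 KO (log2 fold change −0.65 ± 0.15, adjusted p = 0.0249). Its libraries overlapped, with Tet2 KO 2 above 4 of the 5 controls, and the call was lost without the run term (adjusted p = 0.928).

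Among the inhibitory receptor genes, Pdcd1, Lag3 and Havcr2 did not pass. Pdcd1, which encodes PD-1, was at 199, 83.5, 124.3, 84 and 87 CPM in Rosa KO and 76.9, 98.4, 86.2 and 100.03 CPM in Tet2 KO (log2 fold change −0.12 ± 0.20, adjusted p = 0.886). Lag3 was at −0.29 ± 0.21 (adjusted p = 0.639) and Havcr2, which encodes TIM-3, at −0.11 ± 0.20 (adjusted p = 0.899), and the surface gene Cd7 at −0.30 ± 0.22 (adjusted p = 0.669). In Lag3, Pdcd1, Havcr2 and Cd7 the run 1 control was the highest of the 9 libraries. The activation receptor gene Tnfrsf9 was at 0.57 ± 0.30 (adjusted p = 0.477). The summed exhaustion list was at 5959 CPM in Rosa KO 1 and 4279 to 4637 CPM in Rosa KO 2 to 5, against 2803, 2709, 3147 and 3026 CPM in Tet2 KO 1 to 4.

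Of 11 tested tissue residency genes, 1 rose (Xcl1) and 3 fell (0.987% and 0.483% of all tested genes), with a list median of −0.64. Itga1 (NCBI gene 109700, mm10 chromosome 13, 114958079 to 115101964), the integrin chain CD49a that binds collagen, was at 130.5, 194, 133, 144 and 110.3 CPM in Rosa KO and 53, 89.9, 31.5 and 50.5 CPM in Tet2 KO, without overlap (log2 fold change −1.77 ± 0.28, adjusted p = 0.000761). Rgs1, which dampens chemokine signals, was at 301, 609, 786, 536 and 567 CPM in Rosa KO and 253, 135.7, 305 and 253 CPM in Tet2 KO and overlapped only through Rosa KO 1 and Tet2 KO 3 (log2 fold change −1.18 ± 0.19, adjusted p = 0.000851). The third was Cd244a, given above. None of 23 immediate early genes passed, and their median was −0.37. Their summed level was 1912 CPM in Rosa KO 1, 4675 to 5285 CPM in Rosa KO 2 to 5, and 2513, 1276, 2482 and 2536 CPM in Tet2 KO 1 to 4. These genes respond to handling and stimulation within minutes, and their part in the falls of Nr4a2, Rgs1 and Bhlhe40 was not tested.

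**Figure D3:**
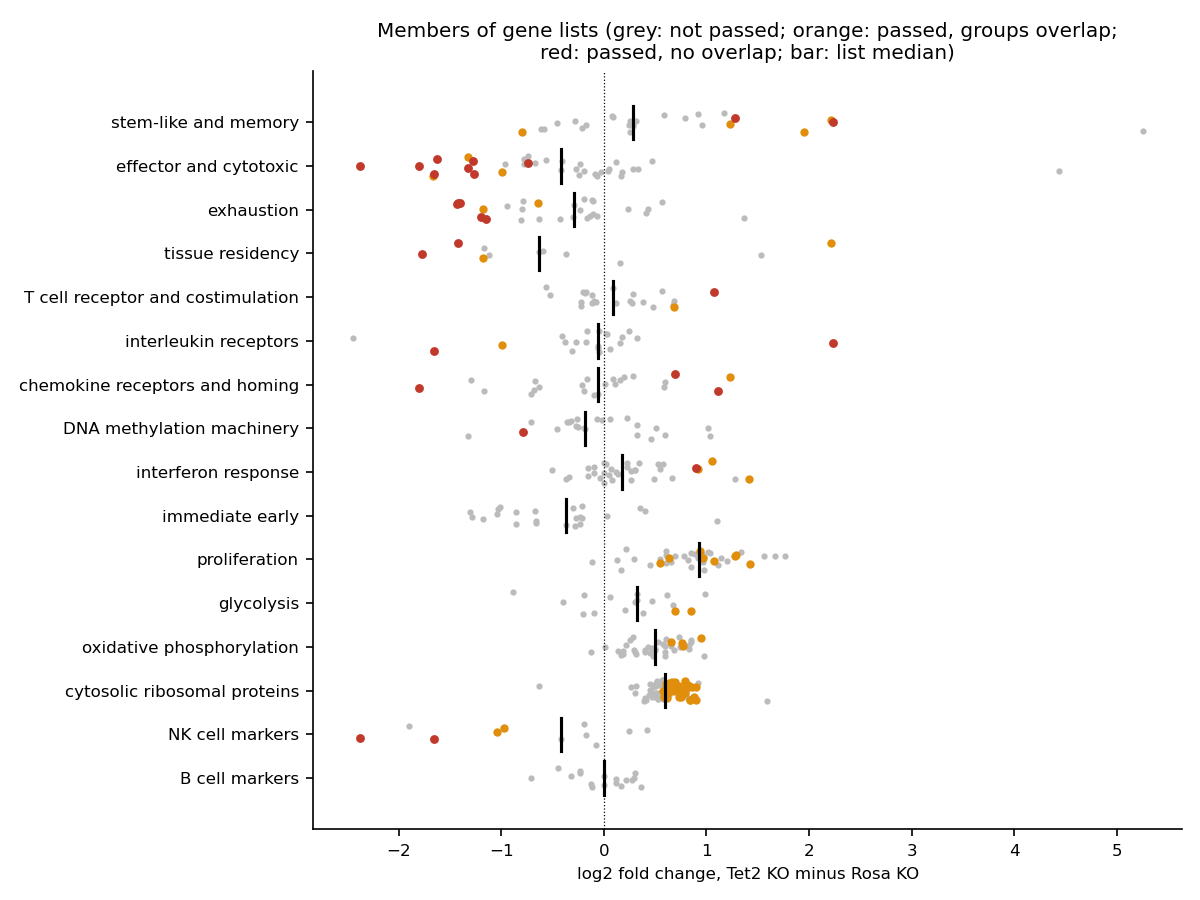
Log2 fold change of Tet2 KO minus Rosa KO (x axis) for the tested members of 16 gene lists (rows). Grey members did not pass, orange passed with overlapping libraries, red passed without overlap, and the bar is the list median. Effector, exhaustion and residency medians lie left of 0 with red members, while the proliferation, oxidative phosphorylation and ribosomal lists lie right of 0 with orange members only.

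Some of the smallest p-values belonged to genes outside these programs. Ubash3b (NCBI gene 72828, mm10 chromosome 9, 41010760 to 41161692) encodes STS-1, a phosphatase that dampens T cell receptor signalling, and was at 229, 156, 142, 146 and 194 CPM in Rosa KO and 68.5, 87.6, 38.2 and 56 CPM in Tet2 KO (log2 fold change −1.69 ± 0.18, adjusted p = 1.41e-05). The highest Tet2 KO library was well below the lowest control. Gpr55 (NCBI gene 227326, mm10 chromosome 1, 85933221 to 85991583), a G protein coupled receptor for lysophospholipids, was at 70.3, 51.9, 38, 49.9 and 37.6 CPM in Rosa KO and nearly lost in Tet2 KO, at 3.97, 2.22, 2.88 and 7.74 CPM (log2 fold change −3.13 ± 0.39, adjusted p = 9.15e-05). Cd80, a B7 costimulatory ligand, fell from 64.7, 74.3, 75.5, 58.4 and 69.5 CPM to 25.5, 33.7, 19.3 and 25.7 CPM (log2 fold change −1.60 ± 0.25, adjusted p = 0.00076) without overlap. Tet2 KO 2, the library with the fewest B cell transcripts, had the highest Cd80 level of its group. Srgap3, a GTPase activating protein, fell from 133, 65.6, 122, 69 and 113 CPM to 44.5, 61, 26.1 and 30.2 CPM (log2 fold change −1.69 ± 0.23, adjusted p = 0.000269). Nabp1, a single-stranded DNA binding protein, was at −0.97 ± 0.15 (adjusted p = 0.000546) and Fndc3a at −1.14 ± 0.17 (adjusted p = 0.000546), and no library overlapped in either.

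A further pair of G protein coupled receptors, chosen after their values were seen, fell in the same way. Glp1r (NCBI gene 14652, mm10 chromosome 17, 30901867 to 30936510), the receptor for glucagon-like peptide 1, was at 195, 23, 47.3, 19.9 and 27.6 CPM in Rosa KO and 6.87, 1.67, 7.09 and 3.59 CPM in Tet2 KO (log2 fold change −2.95 ± 0.45, adjusted p = 0.00113). Adgrg1 (NCBI gene 14766, mm10 chromosome 8, 94974756 to 95014208), an adhesion receptor of cytotoxic cells, was at 161, 61.2, 32.5, 47.2 and 33.5 CPM in Rosa KO and 9.98, 15.6, 14.8 and 14.6 CPM in Tet2 KO (log2 fold change −1.90 ± 0.32, adjusted p = 0.002). In both genes Rosa KO 1 was the highest library, and the 4 run 3 controls alone were still above every Tet2 KO library.

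The rises without overlap were led by Ctla2a (NCBI gene 13024, mm10 chromosome 13, 60934155 to 60936625), an inhibitor of cathepsins with close paralogs. It was at 113, 69.4, 83.9, 61.6 and 63.5 CPM in Rosa KO and 165, 215, 281 and 245 CPM in Tet2 KO (log2 fold change 1.88 ± 0.23, adjusted p = 7.88e-05). Ccr2 (NCBI gene 12772, mm10 chromosome 9, 124101918 to 124109140), a receptor for inflammatory chemokines, was at 411, 259, 308, 221 and 226 CPM in Rosa KO and 1029.8, 1386, 525 and 452 CPM in Tet2 KO, with the run 2 libraries highest (log2 fold change 1.11 ± 0.16, adjusted p = 0.000441). Kbtbd11, a Kelch repeat protein, rose from 45, 13.6, 33.5, 18.9 and 24.9 CPM to 111, 144, 61.5 and 79.4 CPM (log2 fold change 1.84 ± 0.26, adjusted p = 0.000399). Epha3 (NCBI gene 13837, mm10 chromosome 16, 63543532 to 63864175), an ephrin receptor that is barely transcribed in the control, was at 1.99, 1.19, 1.34, 1.27 and 0.151 CPM in Rosa KO and 23, 52.8, 14.4 and 8.16 CPM in Tet2 KO (log2 fold change 4.25 ± 0.65, adjusted p = 0.000584). The integrin chain gene Itgb1 was at 1106, 1089, 1181, 1125 and 1146 CPM in Rosa KO and 1995, 2538, 1580.5 and 1534 CPM in Tet2 KO (log2 fold change 0.69 ± 0.15, adjusted p = 0.0204). The costimulatory receptor gene Icos was at 106, 85.3, 84.7, 75.1 and 96.1 CPM and 164, 176, 165 and 158 CPM (log2 fold change 1.08 ± 0.18, adjusted p = 0.00154), the highest control lying far below the lowest Tet2 KO library. Icos and the CD3 chain gene Cd3d were the 2 rises among 23 T cell receptor and costimulation genes, of which none fell (0.987% and 0.483% of all tested genes). Cd3d, at 0.68 ± 0.17 (adjusted p = 0.0406), lost the call in 7 of the 9 fits that leave out 1 library (adjusted p up to 0.214), without the run term (adjusted p = 1) and within run 3 (adjusted p = 0.0537).

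Vim, an intermediate filament protein of activated and memory cells, rose from 1322, 732, 640.1, 706 and 657 CPM in Rosa KO to 1232, 1307, 1306 and 1215 CPM in Tet2 KO (log2 fold change 0.81 ± 0.13, adjusted p = 0.000907), with Rosa KO 1 again at the level of Tet2 KO. The annexin gene Anxa2, at 0.94 ± 0.17 (adjusted p = 0.00412), and the peptidase gene Dpp4, at 0.71 ± 0.16 (adjusted p = 0.023), both chosen after their values were seen, rose without overlap. Of 23 chemokine receptor and homing genes, Ccr2, Cxcr3 and Itgb1 rose and S1pr5 fell, while the list median was −0.059 and 11 of the 23 had a positive log2 fold change. Among 34 interferon response genes, 4 rose and 0 fell, and the median was 0.18. Oas1a, an antiviral oligoadenylate synthase, separated the groups, at 95.5, 49.9, 73.5, 72.3 and 55.1 CPM in Rosa KO and 128, 119.9, 132.01 and 110.4 CPM in Tet2 KO (log2 fold change 0.90 ± 0.23, adjusted p = 0.0456). Oas3, Bst2 and Ifi27l2a overlapped, and for Bst2 and Ifi27l2a the high libraries were Tet2 KO 3 and 4 alone. Ifi27l2a was at 266, 444, 323, 350.1 and 289 CPM in Rosa KO and 314, 299.9, 933 and 922 CPM in Tet2 KO (log2 fold change 1.41 ± 0.18, adjusted p = 0.000102), and its neighbour Ifi27 overlaps it. The same held for Ly6a, the Sca-1 antigen of a family of close paralogs, at 521, 614, 725, 520.5 and 586 CPM and 511, 398, 1406 and 1153 CPM (log2 fold change 1.01 ± 0.15, adjusted p = 0.000546).

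Because TET2 acts on methylated cytosine in CpG, the CpG sites just upstream of genes that separated the groups are shown, although no methylation was measured in these libraries. The 250 bases before the start site are printed for 3 falls and 3 rises, taken from RefSeq on GRCm38.p6 (mm10), 5′ to 3′ on the strand of the gene, with CpG in capitals. They are the genes of smallest p among the 28 that passed without overlap and whose listed start is the 5′ end of the RefSeq gene record. Among the falls, Entpd1 (chr19:40612116-40612365, plus strand) has 18 CpG, S1pr5 (chr9:21248444-21248693, minus strand) has 22 and Fasl (chr1:161788496-161788745, minus strand) has 7. Among the rises, Ctla2a (chr13:60936626-60936875, minus strand) has 3 CpG, Epha3 (chr16:63864176-63864425, minus strand) has 16 and Anxa2 (chr9:69453433-69453682, plus strand) has 9. Over all 27025 genes with a listed promoter the median was 6 CpG in such a window, with quartiles of 2 and 16. Over the tested genes it was 15 CpG, against 10 for the falls without overlap and 4 for the rises without overlap. Only 79.0% of the tested genes had a listed promoter, which is too few for a comparison, so these counts are a description.
Entpd1: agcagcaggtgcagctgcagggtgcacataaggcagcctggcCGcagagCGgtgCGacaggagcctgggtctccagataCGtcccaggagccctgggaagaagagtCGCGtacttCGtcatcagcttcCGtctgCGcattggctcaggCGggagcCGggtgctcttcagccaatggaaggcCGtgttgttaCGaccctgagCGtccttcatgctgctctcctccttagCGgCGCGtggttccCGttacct
S1pr5: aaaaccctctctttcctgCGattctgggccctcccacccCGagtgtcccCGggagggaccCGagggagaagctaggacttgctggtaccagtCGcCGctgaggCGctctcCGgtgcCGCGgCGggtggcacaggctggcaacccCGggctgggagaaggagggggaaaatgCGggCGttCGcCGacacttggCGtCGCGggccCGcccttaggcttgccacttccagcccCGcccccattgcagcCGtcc
Fasl: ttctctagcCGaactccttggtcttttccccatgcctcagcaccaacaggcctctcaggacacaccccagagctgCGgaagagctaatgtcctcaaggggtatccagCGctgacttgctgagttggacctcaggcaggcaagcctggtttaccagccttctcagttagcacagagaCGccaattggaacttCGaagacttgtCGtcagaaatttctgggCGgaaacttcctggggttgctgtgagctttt
Ctla2a: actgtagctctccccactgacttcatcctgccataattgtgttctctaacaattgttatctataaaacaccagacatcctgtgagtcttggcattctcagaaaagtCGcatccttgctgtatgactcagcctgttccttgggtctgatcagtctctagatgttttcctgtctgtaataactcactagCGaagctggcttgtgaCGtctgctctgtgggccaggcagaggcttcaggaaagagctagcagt
Epha3: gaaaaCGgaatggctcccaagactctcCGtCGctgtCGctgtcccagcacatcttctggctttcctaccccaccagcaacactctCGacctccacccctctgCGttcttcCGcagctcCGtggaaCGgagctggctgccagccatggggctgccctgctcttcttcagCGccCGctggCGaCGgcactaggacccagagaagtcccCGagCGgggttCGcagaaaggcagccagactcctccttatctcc
Anxa2: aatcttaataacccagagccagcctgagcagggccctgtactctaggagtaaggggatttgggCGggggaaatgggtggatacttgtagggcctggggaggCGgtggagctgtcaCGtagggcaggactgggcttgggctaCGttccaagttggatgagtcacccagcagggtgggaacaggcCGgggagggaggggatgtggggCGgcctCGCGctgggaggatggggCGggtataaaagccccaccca

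Most of the rises, 113 of 137, had overlapping libraries. In all 113 both run 3 libraries of Tet2 KO lay above the run 3 controls, as in 13.5% of all tested genes. In 90 of the 113 (79.65%) the mean of the run 2 libraries of Tet2 KO lay below the control mean, as in 54.2% of all tested genes. These genes were picked as rises with overlap, so high run 3 and lower run 2 libraries follow in part from that choice. Of the 83 genes of the cytosolic ribosome, a list chosen after the values were seen, 36 rose and 0 fell, and the list median was 0.59. The summed level of the ribosomal genes was 63377, 77499, 69829, 58740 and 55313 CPM in Rosa KO 1 to 5. It was 52223 and 43694 CPM in the run 2 libraries of Tet2 KO and 102370 and 94930 CPM in the run 3 libraries. So no ribosomal gene had all Tet2 KO libraries above all controls: in 45 of the 83 both run 2 libraries lay below every control, and in 73 both run 3 libraries lay above the run 3 controls. Over all tested genes the corresponding shares were 6.48% and 13.5%, and both run 2 libraries lay above every control in 6.91%. Without the run term the list median was 0.18.

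In the lists of cell growth the run 3 libraries of Tet2 KO were again high. Of 40 proliferation genes, 8 rose and 0 fell, 39 had a positive log2 fold change and the median was 0.93. Their summed level was 3307 to 3831 CPM in Rosa KO and 2942, 4333, 7168 and 6467 CPM in Tet2 KO 1 to 4. Unlike the ribosomal sum, the proliferation sum of Tet2 KO 2 lay above every control. In 2 of the 40 genes (5%) both run 2 libraries lay below every control, near the 6.48% of all tested genes. The cyclin gene Ccnb2 was at 29.1, 25.8, 38.8, 31.4 and 21.9 CPM in Rosa KO and 26.8, 18.1, 114 and 91 CPM in Tet2 KO (log2 fold change 1.43 ± 0.28, adjusted p = 0.00852), and the replication helicase gene Mcm2 at 69, 42.6, 51.5, 49.7 and 40.2 CPM and 46.3, 38.5, 94.4 and 99.4 CPM (log2 fold change 0.97 ± 0.22, adjusted p = 0.0244). Of 40 oxidative phosphorylation genes, 4 rose and 0 fell, with a median of 0.50 and a summed level of 3908 to 4894 CPM in Rosa KO and 3825, 3397, 6449 and 6017 CPM in Tet2 KO 1 to 4. In 13 of these 40 (32.5%) both run 2 libraries lay below every control, against 6.48% of all tested genes. The glycolytic genes Ldha, at 0.85 ± 0.17 (adjusted p = 0.00735), and Eno1, at 0.70 ± 0.17 (adjusted p = 0.0324), rose among 17. The nuclear RNA Malat1 fell in the fit (log2 fold change −0.90 ± 0.15, adjusted p = 0.002), at 12331, 14218, 10675, 10141 and 15136 CPM in Rosa KO and 11015, 12381, 6128 and 7807 CPM in Tet2 KO, so it was low in the libraries in which the ribosomal genes were high.

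Transcript length moved with these calls. The median length of the longest GENCODE vM21 transcript was 1518 bases for the 113 overlapping rises and 3006 bases for the 24 rises without overlap. It was 4560 bases for the 67 falls and 3247 bases for all tested genes. In run 3 the Asxl1 KO libraries also had high ribosomal sums (97240 and 83045 CPM), and in run 2 the Asxl1 KO and Dnmt3a KO libraries had low ones (34116, 35004 and 44350 CPM). The part of RNA composition and transcript length in the overlapping rises was not tested, and since run 2 holds no Rosa KO library, run and group cannot be told apart there.

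**Figure D4:**
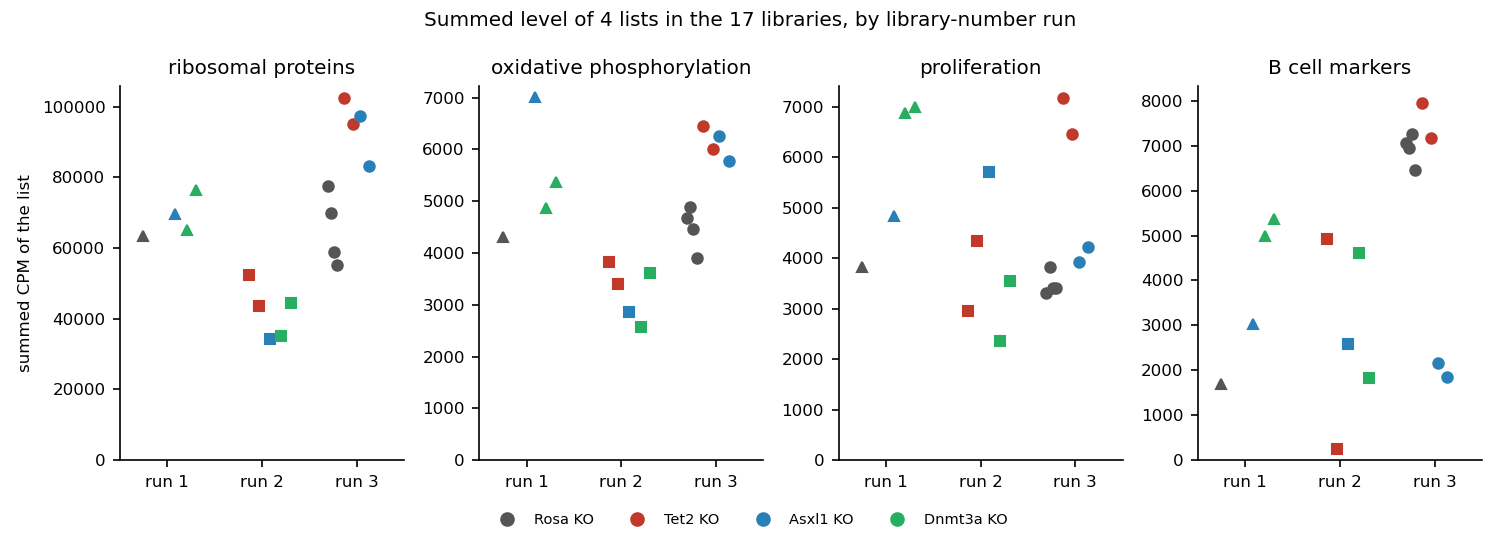
Summed CPM (y axis, from 0) of the ribosomal, oxidative phosphorylation, proliferation and B cell marker lists in each of the 17 libraries, placed by library-number run (x axis) and colored by group. In run 3 the 2 Tet2 KO libraries lie above the 4 Rosa KO libraries for the first 3 lists, while in run 2 Tet2 KO lies below all Rosa KO libraries for the ribosomal and oxidative phosphorylation lists. B cell markers in Tet2 KO 2 sum to only 253.2 CPM.

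The calls differed in how far they rested on single libraries. Of the 204, 32 passed in each of the 9 fits that left out 1 library of Tet2 KO or Rosa KO: 11 rises and 21 falls. There were 12 genes that met this and also had no overlap and passed without the run term and within run 3. The rises among them were Ccr2, Ctla2a and Kbtbd11, and the falls were Entpd1, Cd80, Fasl, Adgrg1, Itgam, Bhlhe40, Gpr55, Ubash3b and S1pr5. These 12 were singled out after their values were seen, by fits that share libraries with the main fit. Tcf7, Zeb2, Cxcr3, Icos, Epha3, Itga1, Rgs1, Vim and Glp1r also passed in all 9 such fits. When a score of the B cell markers was added to the model, 201 of the 204 genes passed. Il7r and Klrb1c did not pass without Tet2 KO 3 or without Tet2 KO 4 (highest adjusted p = 0.0647 and 0.13), nor did Ccl9 and Klrc2 (0.101 and 0.195), Il18rap and Ccnb2 (0.195 for each), Rgs16 (0.0968) or Ldha (0.0765). Slamf6 and Anxa2 did not pass without Tet2 KO 3 (0.0647 for each), Xcl1 without Tet2 KO 4 (0.0587), and Itgb1 without Rosa KO 1 or Tet2 KO 3 (0.0613). Tox, Klrg1, Bcl2, Cd244a, Nr4a2, Zbtb38, Il12rb2, Serpinb9, Dpp4, Oas1a, Oas3, Bst2, Klre1, Txk, Cd3d, Mcm2 and Eno1 lost the call in 3 or more of these fits. Besides the 12, the named genes that passed without the run term were Epha3, Il7r, Klrb1c, Nr4a2, Ccl9 and Slamf6. Without Tet2 KO 3 the number of calls was 33, without Tet2 KO 4 it was 47, and without Rosa KO 4 or 5 it was 91 or 87.

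Tet2 KO was also compared directly with the other knockouts, which asks whether its values differ from those after loss of another regulator. Between Tet2 KO and Asxl1 KO, 78 genes passed (0.562%), 16 higher (0.115%) and 62 lower (0.447%) in Tet2 KO. Of the 204 genes above, 27 were among them with the same sign, 5 higher and 22 lower. Lower than in Asxl1 KO were Ubash3b at −1.61 ± 0.17 log2 units (adjusted p = 8.51e-06), Entpd1 at −1.47 ± 0.16 log2 units (adjusted p = 8.51e-06), Gpr55 at −3.27 ± 0.38 log2 units (adjusted p = 1.53e-05), Adgrg1 at −2.96 ± 0.33 log2 units (adjusted p = 8.51e-06) and Glp1r at −4.12 ± 0.46 log2 units (adjusted p = 2.9e-05). Tox was lower as well, at −1.20 ± 0.15 log2 units (adjusted p = 2.45e-05). These contrasts share the Tet2 KO libraries with the comparison against Rosa KO, so they are not independent of it.

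Among the exhaustion genes, 11 of 28 were lower in Tet2 KO than in Asxl1 KO and none was higher, against 0.447% of all tested genes lower. Entpd1, Tox, Rgs1 and Cd244a among them had also passed against Rosa KO, and Cd7, Lag3, Pdcd1, Tnfrsf9, Tox2, Cd160 and Cxcr6 had not. Cd7 was at −2.01 ± 0.23 (adjusted p = 1.28e-05), Lag3 at −1.56 ± 0.21 (adjusted p = 9.9e-05), Pdcd1 at −1.09 ± 0.20 (adjusted p = 0.00449) and Tnfrsf9 at −2.06 ± 0.31 (adjusted p = 0.000664). Gzma was higher in Tet2 KO than in Asxl1 KO, at 1.61 ± 0.17 (adjusted p = 8.51e-06). For several genes that moved against Rosa KO no difference between the knockouts was detected. Tcf7 was at 0.02 ± 0.27 (adjusted p = 0.999) against Asxl1 KO and 0.17 ± 0.29 (adjusted p = 0.992) against Dnmt3a KO, Itgam at −0.01 ± 0.18 (adjusted p = 0.999) and 0.03 ± 0.20 (adjusted p = 1), and S1pr5 at 0.24 ± 0.24 (adjusted p = 0.931) and 0.34 ± 0.24 (adjusted p = 0.969). A p that misses the threshold does not show that these levels are alike. Within run 3 alone, 618 genes passed for Tet2 KO versus Asxl1 KO, with 2 libraries each and 2 residual degrees of freedom. These pairs were the closest of their groups, by chi-square per degree of freedom against sampling noise. It was 19.7 for Tet2 KO 3 and 4 and 37.5 for Asxl1 KO 3 and 4. Other pairs lay at 111 to 248.4 in Tet2 KO and 167.1 to 257.7 in Asxl1 KO. The count within run 3 therefore reflects a small spread and cannot be set against the count over all libraries.

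Against Dnmt3a KO, 13 genes passed (0.0937%), 10 higher (0.072%) and 3 lower (0.0216%) in Tet2 KO, and 7 of them were among the 204 with the same sign. Ccr2 was higher by 1.73 ± 0.18 log2 units (adjusted p = 1.43e-05), Itgb1 by 0.91 ± 0.16 log2 units (adjusted p = 0.0184), Vim by 0.74 ± 0.14 log2 units (adjusted p = 0.0273) and Ctla2a by 1.30 ± 0.24 log2 units (adjusted p = 0.0237). Ubash3b was lower, at −1.55 ± 0.18 log2 units (adjusted p = 6.66e-05). Ubash3b, Ccr2, Itgb1 and Vim were thus shifted in the same direction against all 3 other groups. Entpd1, Gpr55, Adgrg1, Glp1r and Tox, lower than in Asxl1 KO, did not pass against Dnmt3a KO. Entpd1 was at −0.49 ± 0.17 log2 units (adjusted p = 0.632) and Gpr55 at −0.77 ± 0.40 log2 units (adjusted p = 0.903). The level of Gpr55 was low in Dnmt3a KO 1 to 4 too, at 17.98, 15.5, 2.81 and 8.37 CPM. The adjusted p was 0.1003 for Adgrg1, 0.227 for Glp1r and 0.163 for Tox. Gzma, which did not pass against Rosa KO, was higher than in Dnmt3a KO, at 1.00 ± 0.18 (adjusted p = 0.0237). Tet2 KO and Dnmt3a KO share only run 2, so no value within run 3 can be given for this contrast.

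**Figure D5:**
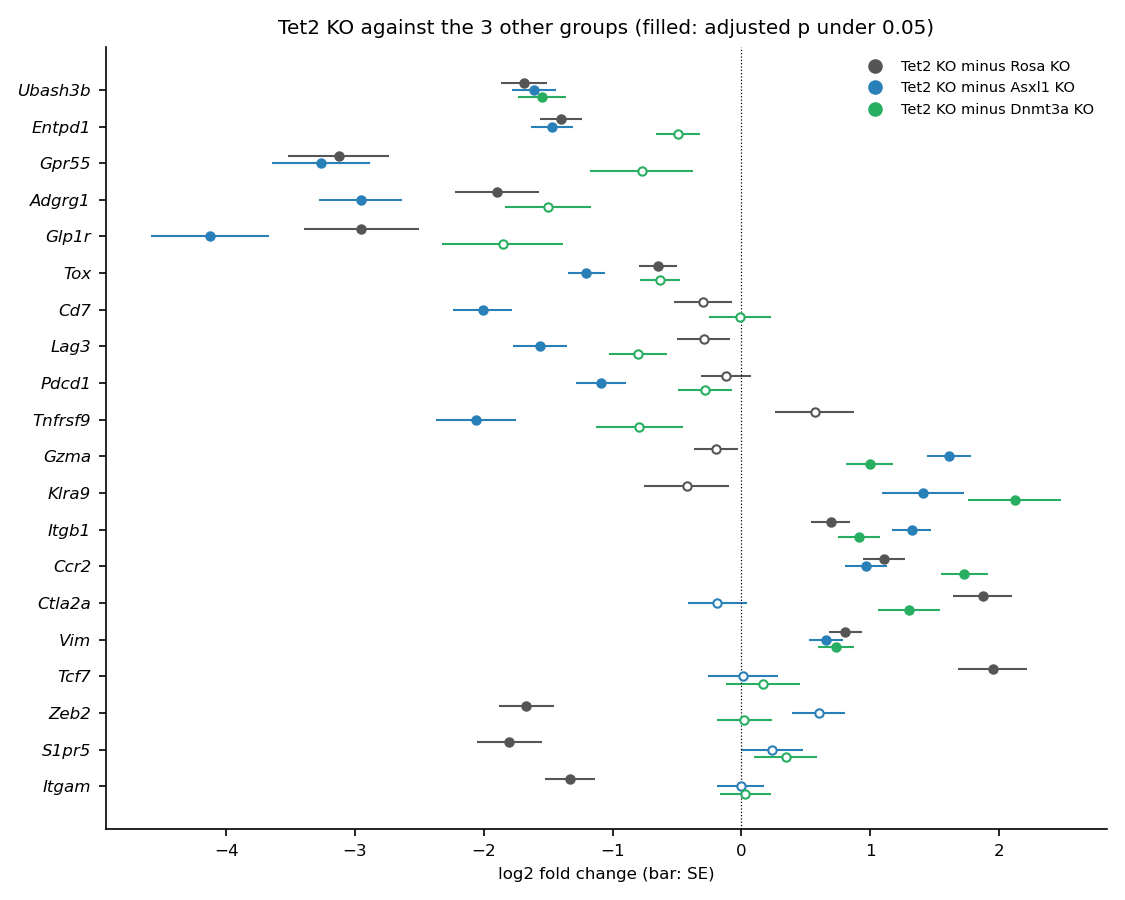
Log2 fold changes with standard errors (x axis) of Tet2 KO minus Rosa KO (grey), minus Asxl1 KO (blue) and minus Dnmt3a KO (green) for 20 genes (rows). Filled points passed at an adjusted p under 0.05. Ubash3b, Ccr2, Itgb1 and Vim are filled in all 3 contrasts, Cd7, Lag3, Pdcd1 and Tnfrsf9 against Asxl1 KO only, and Tcf7, Zeb2, S1pr5 and Itgam against Rosa KO only.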

How the data were processed

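RNA-seq of mouse spleen CD8 T cells was analysed from 17 deposited tables, 1 for each library, in which the authors deposited raw counts per gene beside an NCBI gene identifier and a symbol. STAR 2.5.3a, DESeq2 1.26.0 and mm10 appear in the submitters' processing notes without roles. The counter, its annotation and its use of the strand were not given in the sources used here. Per the labels' protocols, a stranded total RNA kit was used, while the molecule field reads genomic DNA.

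Of 24594 rows, 3 without a symbol were dropped (at most 0.00028% of a library's counts). The fit used edgeR 4.0.16 in R 4.3.3: TMM scaling, a robust quasi-likelihood F test, group and run as terms, and all 17 libraries. Genes were kept by filterByExpr (count of at least 10, total of at least 15), and p-values of the 13880 kept genes were adjusted together (Benjamini-Hochberg, threshold 0.05). The step was tested on simulated data. Groups came from the labels and run from the library numbers. DESeq2 1.42.0, other scaling, no filter, other terms and left-out libraries were alternatives. The labels do not say whether replicates are separate mice, so p-values measure the spread between libraries, which may be technical. No pair of libraries of a group agreed within sampling noise (chi-square per degree of freedom of at least 19.7).

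The groups compared and the 24 gene lists were chosen with earlier results of these data known, so list counts are descriptions. Genes were named by a rule: the 3 targeted genes, 22 T cell genes regardless of their p (1 more is not reported here), up to 4 passing genes of each list, and up to 12 rises and 12 falls of smallest adjusted p. For the last, a gene needed at least 5 CPM in 1 group and an unchanged sign both within run 3 and with run out of the model, and markers of other cells, gene models without a known product and receptor segments were left out. RefSeq GRCm38.p6, the assembly of mm10, matched 13870 of the tested identifiers and gave coordinates and promoters. Overlapping genes and close paralogs may share counts.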

Additional observations from a re-analysis of the deposited data

Results flagged for a closer look

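In 14 of 148 pairs of a named gene and a group, 1 library lay far from the others of its group, beyond Dixon's critical value at the 95% level. Chance gives such a gap in about 1 in 20 groups, and the genes are not independent. Rosa KO 1, the control library of run 1, accounted for 11 of them. Its level was higher than in Rosa KO 2 to 5 for Tcf7 (102 CPM against 14.2 to 24.6), Cxcr3 (184 against 72.8 to 81.6), Vim (1322 against 640.1 to 732), Entpd1 (322 against a highest of 153), Tox (1142 against 437 to 538), Lag3 (95.6 against 51.8 to 60.1) and Asxl1 (161 against 82.1 to 98.2). It was lower for Ifng (81.9 CPM against 398 to 423), Klrb1c (108 against 234 to 266), Il18rap (472 against 956 to 1131) and Fasl (257 against 308 to 327). With Rosa KO 1 left out, Tcf7, Cxcr3, Vim, Entpd1, Klrb1c, Il18rap and Fasl passed, and Tox did not. In the other 3 cases the library was Rosa KO 5 for Epha3 (0.151 CPM), Rosa KO 3 for Atp5g3 (128 CPM) and Tet2 KO 4 for Il12rb2 (9.81 CPM).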

How the results depend on the processing

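For Tet2 KO versus Rosa KO, 204 genes passed. There were 193 with DESeq2's size factors in edgeR, 212 with a B cell score as covariate, 155 with only these 2 groups, 378 with no filter, 678 with DESeq2 (all 204 among them), 23 with no run term, 120 without both run 2 Tet2 KO libraries, 8 without both run 3 ones and 33 to 199 with 1 library left out. For Tet2 KO versus Asxl1 KO (78 genes) there were 192 with no filter, 366 with DESeq2, 27 with no run term, 26 without both run 2 and 25 without both run 3 Tet2 KO libraries, 618 within run 3 and 35 to 87 with 1 library left out. For Tet2 KO versus Dnmt3a KO (13 genes) there were 66 with no filter, 247 with DESeq2, 1 with no run term, 3 without both run 2 Tet2 KO libraries and 2 to 11 with 1 library left out, and no fit was possible within run 3. Replicate numbers did not pair the libraries (correlations of same-numbered deviations 0.0626, −0.0241, 0.0619 and 0.0561). With the replicate number as a block the 3 counts were 52, 37 and 1.

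Among the genes named by the rule, log2 fold changes against Rosa KO that turned sign belonged to genes that did not pass. Klrc2, chosen after its values were seen, passed and turned sign with no run term, as given above. Dnmt3a was at 0.25 with no run term, 0.028 with the replicate block, 0.0399 without both run 2 Tet2 KO libraries, 0.12 with only the 2 groups, 0.13 within run 3 and −0.21 to 0.12 with 1 library left out. Asxl1 in Tet2 KO versus Rosa KO was at −0.0047 with DESeq2's size factors and with DESeq2, −0.017 with the replicate block, −0.021 with the B cell score, −0.19 without both run 3 Tet2 KO libraries and −0.099 to 0.26 with 1 library left out. With no run term, Tet2 was at 0.17 and Tnfrsf9 at −0.086. Without both run 3 Tet2 KO libraries, Cx3cr1 was at 0.22, Gzma at 0.19 and Prf1 at 0.074. Cd7 was at 0.0014 within run 3. With 1 library left out, Cd7 lay at −0.47 to 0.0015, Havcr2 at −0.22 to 0.0012 and Pdcd1 at −0.19 to 0.067. The cause of these shifts was not tested. Depth limits the lowest levels: the 0.151 CPM of Epha3 in Rosa KO 5, the library with the fewest counts, rests on 1 count.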
